A study of Mus musculus with 18 samples.

Results

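The fibrillar collagen genes were followed through RNA sequencing of cardiac fibroblasts from neonatal mice. The 10 members were taken by name (Col1a1, Col1a2, Col2a1, Col3a1, Col5a1, Col5a2, Col5a3, Col11a1, Col11a2 and Col27a1) from the 55453 gene symbols of the count table, and each had 1 row. The pups were C57BL/6J mice with the genotype Tcf21-MerCreMer/+; Rosa-mTmG/+, and all of them received tamoxifen at P1, so that cells of the Tcf21 lineage turned on GFP. GFP+ cells sorted from the apical portion of the ventricles gave 18 libraries in 6 groups of 3. Un-manipulated pups at P2 and P10 formed the baseline groups. In the other groups surgery, either sham or an apical resection, was done at P2 or at P10, and the hearts were taken after 3 days (P5 and P13). The comparisons ask how these cells differ between the age at which the heart regenerates and the later age at which it scars, and what resection adds to sham surgery at each age.

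Several features limit what the groups can show. The inducible Cre is driven from Tcf21, so only cells that expressed Tcf21 around P1 were marked. Neither sex nor the number of pups behind a library is given in the labels, and nothing says that the libraries of a group came from separate animals, so p-values measure the spread between these libraries, which may be partly technical. Hearts collected at P10 and P13 were digested for longer than those at P2 and P5, and the digestion time and age cannot be told apart. Fewer cells of a type and less RNA per cell cannot be told apart in bulk RNA either. The total count of a library was 10462737 to 22980554. In 3 groups replicate 1 stood apart: the chi-square of counts per gene between it and the other 2 libraries was 185 and 318 at P2 sham, 160 and 172 at P10 sham and 173 and 175 at P10 baseline, where the other 2 gave 81.9, 37.6 and 37.3. For many of the members' log2 differences that rest on these groups, the value without replicate 1 is also given. The labelled cell type was checked against its defining markers: Tcf21 was at 203 to 447 CPM (counts per 1000000 counts of a library, after scaling by edgeR's TMM factors) and Pdgfra at 256 to 878 CPM, above 0 in all 18 libraries. The summed level of 8 epicardial markers was at most 59.4 CPM.

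Fibrillar collagens are the collagens that assemble into the banded fibrils that carry tension in a tissue. Type I collagen holds products of Col1a1 and Col1a2, type III collagen is a homotrimer of the Col3a1 product, and both are the bulk of the collagen in heart muscle and in scars. Types V and XI are minor collagens that start fibrils and limit their width, with chains from Col5a1, Col5a2, Col5a3, Col11a1 and Col11a2. Type II, from Col2a1, is the main fibrillar collagen of cartilage, and type XXVII, from Col27a1, is found in cartilage and forms thin fibrils. Each chain is made as a procollagen, folded in the endoplasmic reticulum, trimmed by proteinases outside the cell and then crosslinked.

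The stretches just before the start sites of the members whose mRNA changed with age are shown first, since Col3a1 and Col5a3 rose and Col11a1 fell. They come from RefSeq on GRCm38.p6, which held a promoter entry for 7 of the 10 members. Each is 150 bases long and ends at the base before the start site, at chr1:45311388-45311537 on the + strand for Col3a1, chr9:20815068-20815217 on the - strand for Col5a3 and chr3:114030390-114030539 on the + strand for Col11a1. Capitals mark the CCAAT box or its reverse complement ATTGG.
Col3a1: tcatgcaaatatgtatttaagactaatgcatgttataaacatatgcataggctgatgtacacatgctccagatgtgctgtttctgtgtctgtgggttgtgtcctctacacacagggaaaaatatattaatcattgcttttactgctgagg
Col5a3: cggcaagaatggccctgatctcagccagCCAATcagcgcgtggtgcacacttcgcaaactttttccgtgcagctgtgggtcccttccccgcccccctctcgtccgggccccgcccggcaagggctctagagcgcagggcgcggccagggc
Col11a1: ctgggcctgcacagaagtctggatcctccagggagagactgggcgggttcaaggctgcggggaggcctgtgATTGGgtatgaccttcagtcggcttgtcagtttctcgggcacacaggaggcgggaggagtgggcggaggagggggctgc

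In the 250 bases before the start site, searched on both strands, CCAAT occurred in 3 of the 7 member promoters (Col1a2, Col5a3 and Col11a1) and in 33.8% of all 32851 promoters. GGGCGG, the core of the GC box, occurred in 6 of the 7 and in 32.7% of all promoters, and the member without it was Col3a1. TATAAA occurred in Col3a1 and Col11a2 and in 12.4% of all promoters. Whether matches to different motifs shared bases was not checked. The Col3a1 stretch stood apart in base composition, with 35.2% G and C in its 250 bases, where the other 6 had 57.6% to 76.4%. These are matches of letters, and no binding was measured.

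Several fibrillar collagens are known targets of the miR-29 family, whose members share 1 seed. The microRNAs were not measured here, and their mature sequences from RefSeq are shown with the seed (bases 2 to 8) in capitals. For each name 1 genomic position was kept, and further copies were not listed. It is chr6:31062673-31062694 on the - strand for miR-29a, and chr1:195037091-195037113 and chr1:195037600-195037621 on the + strand for miR-29b and miR-29c.
miR-29a-3p: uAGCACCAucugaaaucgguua
miR-29b-3p: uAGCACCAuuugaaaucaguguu
miR-29c-3p: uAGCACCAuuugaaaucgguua

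The match to this seed, TGGTGCT, occurred in the 3′ UTR of 8 of the 10 members (the exceptions were Col1a2 and Col11a2) and of 13.1% of the 20736 genes with an annotated 3′ UTR. Col5a1 held 4 matches, Col5a3 3 and Col11a1 2, and 2.05% of all genes held 2 or more. The match occurred in members that rose with age and in Col11a1, which fell, as the following sites of 23 bases (GRCm38.p6) show, with the match in capitals. The Col3a1 site lies at chr1:45348967-45348989 on the + strand, the Col5a3 site at chr9:20770503-20770525 on the - strand and the Col11a1 site at chr3:114219068-114219090 on the + strand.
Col3a1: ttcaaaatgtctcaaTGGTGCTa
Col5a3: ctccaccaggcctttTGGTGCTa
Col11a1: ctatttggatttcgtTGGTGCTg

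Together the 10 genes took between 3.94% and 8.09% of all counts in the 9 libraries of the P2 window (baseline, sham and resection) and between 5.10% and 8.89% in the 9 of the P10 window. The group means were 4.78% ± 0.649 (SD, n = 3) at P2 baseline, 4.63% ± 1.15 at P2 sham, 7.01% ± 1.56 at P2 resection, 7.22% ± 1.47 at P10 baseline, 6.07% ± 0.912 at P10 sham and 7.70% ± 1.07 at P10 resection. The P10 baseline libraries (5.73% to 8.67%) were all above the P2 baseline libraries (4.18% to 5.47%), and the sham and resection groups overlapped at both ages. Col3a1 had more reads than any other gene in all 18 libraries, and Col1a1, Col1a2 and Col3a1 together held 87.7% to 92.6% of the members' counts.

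Levels of different genes were compared per kb of the longest coding transcript in GENCODE M21. On this scale Col3a1 was highest, at 6747 ± 2173 CPM per kb (SD over 18 libraries). Col1a2 was at 1950.2 ± 547 and Col1a1 at 1644 ± 603 CPM per kb, and these 2 overlapped. The chains of type V collagen followed, with Col5a1 at 459 ± 104, Col5a2 at 163 ± 48.5 and Col5a3 at 76.9 ± 38.5 CPM per kb, each overlapping its neighbour in this order. Col11a1 at 7.08 ± 6.21 and Col27a1 at 3.58 ± 1.23 CPM per kb overlapped each other. The ranges did not overlap between Col3a1 and Col1a2, between Col1a1 and Col5a1 or between Col5a3 and Col11a1. Col11a2 and Col2a1 had at most 0.561 and 0.270 CPM per kb. With the union of all annotated exons as the length, Col1a1 came before Col1a2 (1486 and 839 CPM per kb) and the order of the others was kept.

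**Figure D1:**
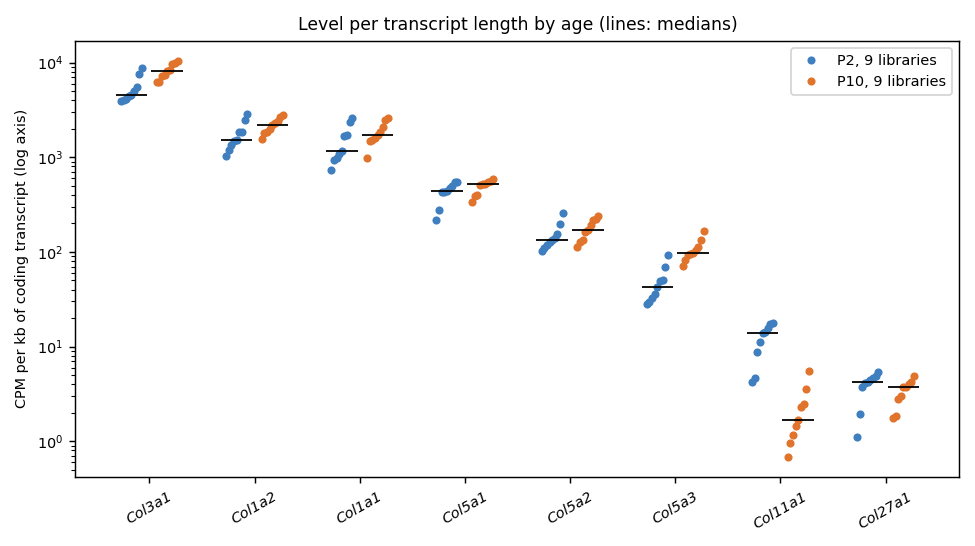
Level of the 8 members that had counts in all 18 libraries, in CPM per kb of coding transcript on a log axis, with 9 libraries per age as points and the median as a line. Col3a1 lies above the 2 type I chains, and Col11a1 is the member whose P10 points fall farthest below its P2 points.

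As shares of the members' summed CPM per kb, Col3a1 held 54.7% ± 3.15 at P2 baseline and 60.8% ± 0.959 at P10 baseline. The share of Col1a2 was 20.4% ± 0.505 at P2 baseline and 17.1% ± 0.675 at P10 baseline. Col1a1 held 16.0% ± 2.67 at P2 baseline and 16.2% ± 0.549 at P10 baseline. After sham surgery its share was 14.5% ± 3.39 at P2 and 11.98% ± 1.51 at P10, and after resection 16.1% ± 2.45 and 13.7% ± 2.40. Col5a1 held 6.31% ± 0.0601 at P2 baseline and 3.83% ± 0.108 at P10 baseline, but its shares at P2 and P10 lay close together after sham surgery (3.98% ± 0.589 and 3.70% ± 0.267) and after resection (4.26% ± 0.985 and 3.85% ± 0.698). With the union of exons as the length, the Col5a1 share at baseline was 10.0% at P2 and 6.14% at P10. Shares of one sum depend on one another, and they were not tested.

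The P10 window was compared with the P2 window as the mean of its 3 groups. Col3a1 and Col5a3 were higher and Col11a1 was lower in the P10 window, while the chains of type I collagen, Col5a1, Col5a2 and Col27a1 were not called. By edgeR's quasi-likelihood test, 3 of the 10 members had an adjusted p (Benjamini-Hochberg over 16170 genes) under 0.05, against 13.5% of all genes tested, and all 10 had passed the filter on low counts. In the higher direction 2 members were called, against 7.11% of all genes, and in the lower direction 1, against 6.39%. The median log2 fold change was 0.29 over the members and -0.06 over all genes tested.

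Col3a1 lies on chromosome 1 of GRCm38 (chr1:45311538-45349706, + strand) and encodes the single chain of type III collagen. At P2 it was at 22487, 25336 and 22068 CPM in the baseline group, 30396, 22922 and 24595 CPM in the sham group, and 27559.5, 42337 and 48984 CPM in the resection group. At P10 it was at 54921, 45505 and 34346 CPM at baseline, 46931, 34502 and 40631 CPM after sham surgery, and 40197, 58437 and 53575 CPM after resection. The P10 libraries were above all P2 libraries at baseline and after sham surgery, and the ranges overlapped after resection. Over the windows Col3a1 was 1.57-fold higher at P10, a log2 fold change of 0.65 ± 0.13 (SE) with an adjusted p of 0.00269 by edgeR. At baseline the log2 fold change was 0.95 ± 0.23, with an edgeR adjusted p of 0.0248. This call was lost without P10 baseline replicate 1 or 2 or without any of the P2 baseline replicates, with edgeR adjusted p-values of 0.0606 to 0.111. After sham surgery and after resection, Col3a1 differed between ages by 0.65 ± 0.23 and 0.36 ± 0.23 in log2, with edgeR adjusted p-values of 0.156 and 0.787.

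Col5a3 encodes the α3 chain of type V collagen and lies at chr9:20770050-20815067 on the - strand. At P2 it was at 261, 308 and 182 CPM at baseline, 199.5, 171 and 219 CPM after sham surgery, and 300.5, 574 and 428 CPM after resection. At P10 the values were 584, 644 and 498 CPM at baseline, 815, 431 and 568 CPM after sham surgery, and 593, 1006 and 688 CPM after resection. Within baseline, sham and resection each, every P10 library was above every P2 library. Over the windows Col5a3 rose 2.32-fold, a log2 fold change of 1.21 ± 0.17 with an edgeR adjusted p of 8.95e-05. It rose by 1.20 ± 0.29 in log2 at baseline (edgeR adjusted p = 0.0241) and by 1.62 ± 0.29 after sham surgery (edgeR adjusted p = 0.0041). After resection the difference between ages was 0.81 ± 0.29 in log2 with an edgeR adjusted p of 0.297. The baseline call was lost without P10 baseline replicate 2 and without P2 baseline replicate 1 or 3, with edgeR adjusted p-values of 0.0857 to 0.111, and the sham call was lost in a fit of the 2 sham groups alone (edgeR adjusted p = 0.0582).

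Col11a1 encodes the α1 chain of type XI collagen, which starts and narrows fibrils, and lies at chr3:114030540-114220718 on the + strand. At P2 it was at 132, 137 and 119.5 CPM at baseline, 85.4, 32.0 and 36.1 CPM after sham surgery, and 67.1, 107 and 108 CPM after resection. At P10 it was at 42.6, 27.0 and 11.2 CPM at baseline, 18.9, 5.24 and 7.36 CPM after sham surgery, and 8.95, 17.6 and 12.9 CPM after resection. Every P10 library was below every P2 library within baseline, sham and resection each, and 1 P10 baseline library (42.6 CPM) was above 2 P2 sham libraries. Over the windows Col11a1 was 5.51-fold lower at P10, a log2 fold change of -2.46 ± 0.30 with an edgeR adjusted p of 2.8e-05. The log2 fold change was -2.26 ± 0.52 at baseline (edgeR adjusted p = 0.0184), -2.28 ± 0.52 after sham surgery (edgeR adjusted p = 0.0209) and -2.84 ± 0.53 after resection (edgeR adjusted p = 0.0138). Among the 10 members, Col11a1 was the one called in all 3 of these comparisons and over the windows.

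The calls of Col11a1 within single conditions rested on few libraries. At baseline the call was lost without P10 baseline replicate 2 or 3 or P2 baseline replicate 1 or 2, with edgeR adjusted p-values of 0.054 to 0.084. After sham surgery it was lost without P10 sham replicate 2 or 3 or P2 sham replicate 1 (edgeR adjusted p 0.089 to 0.0999) and in a fit of the 2 sham groups alone (edgeR adjusted p = 0.164), and its log2 fold change moved to -3.02 without P10 sham replicate 1 and to -1.69 without P2 sham replicate 1. After resection it was lost without P10 resection replicate 1 or 3 or P2 resection replicate 2 or 3 (edgeR adjusted p 0.0578 to 0.106). The libraries that stood apart moved the age differences as follows. Without P10 baseline replicate 1 the baseline difference was 0.78 for Col3a1, 1.19 for Col5a3 and -2.75 for Col11a1. The sham difference of Col3a1 was 0.78 without P2 sham replicate 1 and 0.53 without P10 sham replicate 1, and that of Col5a3 was 1.63 and 1.35. Over the windows the calls of Col3a1, Col5a3 and Col11a1 held without each of the 18 libraries in turn, with the highest edgeR adjusted p at 0.00834, 0.000332 and 0.000153.

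**Figure D2:**
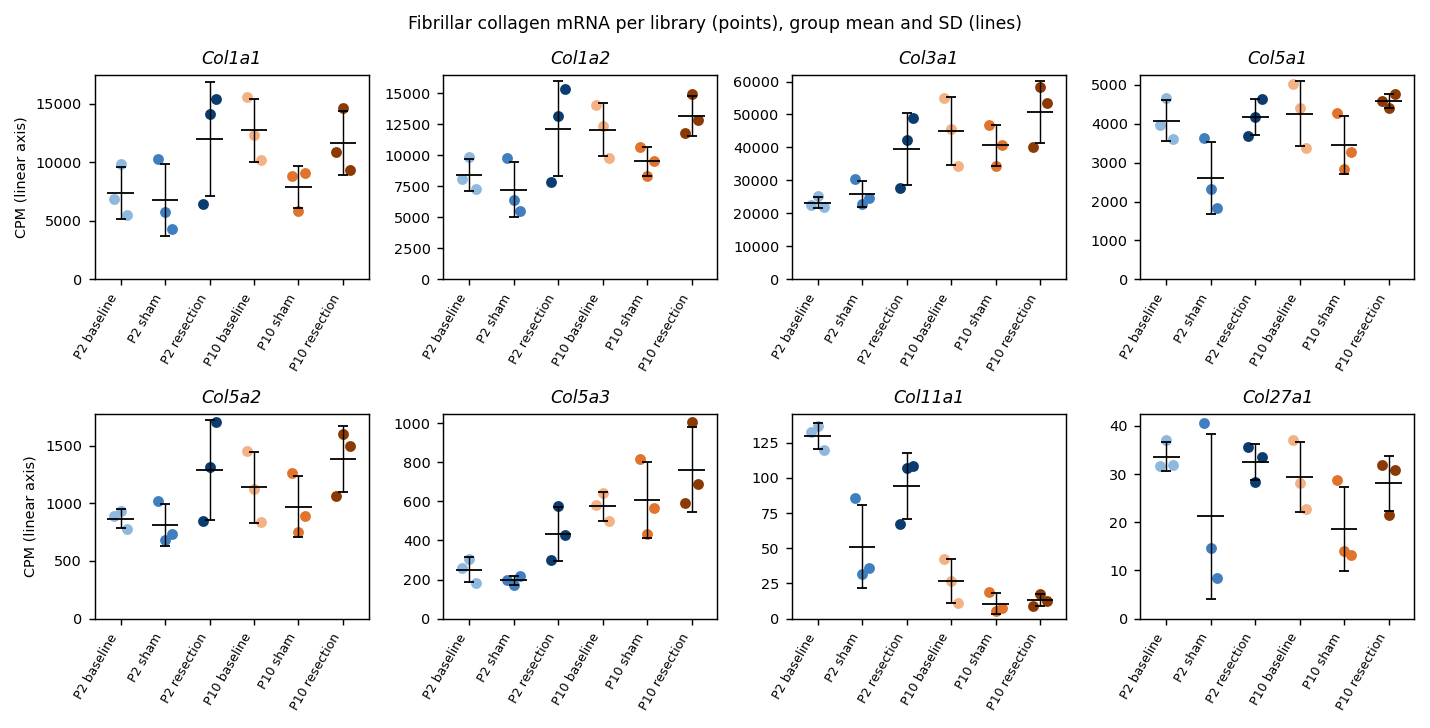
CPM of 8 members in each of the 18 libraries (points), with the group mean and SD (lines), on linear axes that start at 0. Col5a3 at P10 is between 431 and 1006 CPM and at P2 between 171 and 574 CPM, and Col11a1 is at or below 42.6 CPM in every P10 library.

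Within single conditions fewer genes passed the threshold. Between the baseline groups 3 members were called, where 4.38% of all genes tested were. It was 2 members and 3.18% of all genes between the sham groups, and 1 member and 0.86% of all genes between the resection groups. The 3 comparisons of P10 with P2 have no library in common, while the comparison of the windows uses all of their libraries. The ranges at P10 and P2 did not overlap for 4 members in the baseline groups, 4 in the sham groups and 2 in the resection groups, against 22.4%, 16.7% and 23.3% of all genes. The 4 in the sham groups include Col11a2, whose lowest P10 library had 1 count against 0 at P2, which is within the 3 counts that a 0 allows, and without it there were 3.

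**Figure D3:**
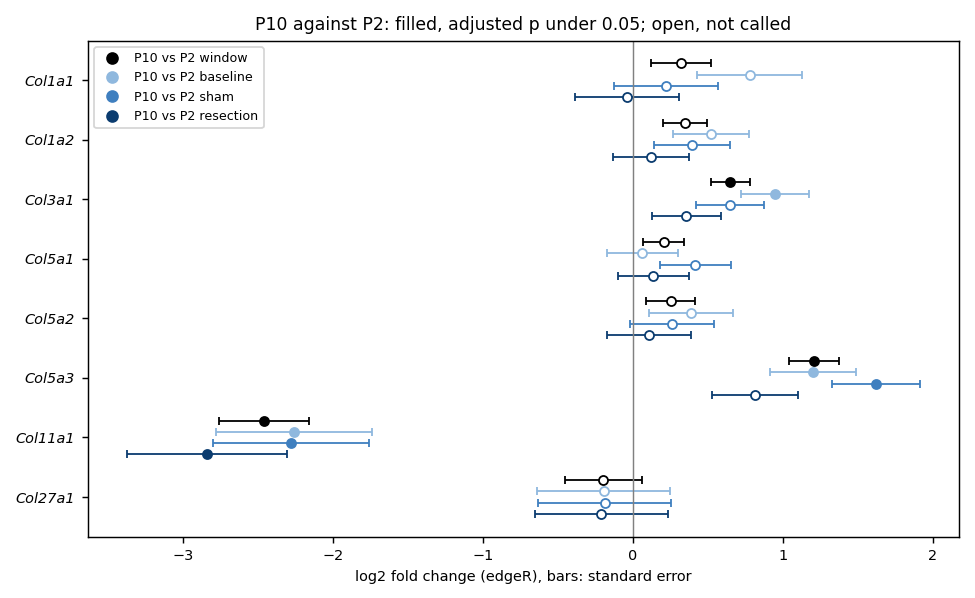
Log2 fold change of P10 against P2 for 8 members, over the windows and within baseline, sham and resection, with bars for the standard error of the edgeR fit. Filled symbols (Col3a1, Col5a3 and Col11a1) had an adjusted p under 0.05, and the Col11a1 points lie between -2.84 and -2.26.

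The chains of type I collagen were not called with age. Col1a1, which encodes the α1 chain, ranged from 4339.6 to 15422 CPM with a median of 6889 CPM in the 9 P2 libraries and from 5856 to 15578 CPM with a median of 10216 CPM in the 9 P10 libraries. Its log2 fold change over the windows was 0.32 ± 0.20 (edgeR adjusted p = 0.325). Col1a2, which encodes the α2 chain, ranged from 5509.7 to 15326 CPM (median 8087) at P2 and from 8301 to 14963 CPM (median 11774) at P10. Its log2 fold change was 0.35 ± 0.15 with an edgeR adjusted p of 0.126, and it passed the threshold in limma's voom fit with sample quality weights (adjusted p = 0.0243, with 28.3% of all genes called by that fit) and in edgeR without P2 sham replicate 1 (adjusted p = 0.0419). At baseline, all 3 P10 libraries were above all 3 P2 libraries for Col1a1 (15578, 12370 and 10216 CPM against 6889, 9859 and 5490 CPM) but overlapped by a small margin for Col1a2 (14081, 12336 and 9812 CPM against 8087, 9853 and 7279 CPM).

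The other chains of type V collagen and type XXVII collagen were not called with age. Col5a1, the α1 chain found in most type V trimers, had a median of 3695 CPM at P2 and 4391 CPM at P10, with a log2 fold change of 0.20 ± 0.14 (edgeR adjusted p = 0.359). Col5a2, the α2 chain, had medians of 889 and 1122 CPM and a log2 fold change of 0.25 ± 0.16 (edgeR adjusted p = 0.337). Col27a1 had medians of 32.0 and 28.2 CPM and a log2 fold change of -0.20 ± 0.26 (edgeR adjusted p = 0.674). The ranges at the 2 ages overlapped for all 3 of these genes.

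Col2a1 and Col11a2, both best known from cartilage, had few reads. Col2a1 had 17, 0 and 0 counts at P2 baseline, 0, 7 and 0 at P2 sham, 1, 14 and 25 at P2 resection, 1, 0 and 0 at P10 baseline, 0 in each P10 sham library and 16, 13 and 1 at P10 resection. It was thus seen in 9 of 18 libraries, among them all 6 resection libraries. Col11a2 had 31, 59 and 7 counts at P2 baseline, 0 in each P2 sham library, 26, 34 and 1 at P2 resection, 0, 0 and 9 at P10 baseline, 1, 49 and 72 at P10 sham and 3, 18 and 1 at P10 resection. In several groups, libraries with 1 count or none stood beside libraries with 9 or more. With the group at 0 set to 3 counts over its summed size, Col11a2 was at least 42.0-fold higher at P10 sham than at P2 sham (edgeR adjusted p = 0.096), a difference that DESeq2 called (adjusted p = 0.00419, with 7.95% of all genes called). It was at least 31.7-fold lower at P2 sham than at P2 baseline (edgeR adjusted p = 0.511). Both bounds use counts summed over a group and cover counting error only, not the spread between libraries. Of the 11 markers of cartilage and valve cells fixed for this check, Matn1 and Snorc were at 0 in all libraries, and Matn3, Col9a1 and Col9a3 were at 0 in 15, 13 and 12 of the 18. Above 0 in all 18 were Sox9, which fibroblasts also express (142 to 395 CPM), Col9a2 (11.2 to 81.3 CPM) and Matn4 (1.58 to 14.8 CPM). Acan, Hapln1 and Cnmd were at 0 in 6, 4 and 3 libraries and reached 6.07, 8.80 and 12.5 CPM. The summed level of these markers was 274 to 490 CPM at P2 and 176 to 336 CPM at P10.

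Ratios of 2 members within a library do not depend on how libraries are scaled. The count ratio of Col5a3 to Col5a1 was between 0.0504 and 0.137 (median 0.0736) in the 9 P2 libraries and between 0.117 and 0.229 (median 0.148) in the 9 P10 libraries. It was 1.99-fold higher at P10, a log2 difference of 0.99, in a two-sided exact permutation test that exchanged the ages within baseline, sham and resection (p = 0.0005, adjusted over 8 ratio tests p = 0.004, 8000 arrangements). Within baseline, sham and resection, the P10 ratios lay above the P2 ratios, apart from 1 P2 resection library (0.137), which was above 1 P10 resection library (0.129). With any 1 of the 18 libraries left out, the log2 difference was 0.91 to 1.10.

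The other ratios overlapped between ages and did not pass the threshold. Col1a1 to Col1a2, the chains of the type I trimer, had medians of 0.894 at P2 and 0.949 at P10, with a log2 difference of 0.0014 (exact permutation p = 0.986, adjusted p = 1). Col5a1 to Col5a2 had medians of 3.58 and 3.68 and a log2 difference of -0.03 (exact permutation p = 0.772, adjusted p = 1). Col3a1 to Col1a1, type III against type I, had medians of 3.26 and 3.98, and its log2 difference of 0.28 did not pass the threshold (exact permutation p = 0.063, adjusted p = 0.252). All 4 ratios overlapped between resection and sham at both ages, and their exact permutation p-values for resection against sham, over 400 arrangements with a smallest possible p of 0.005, were between 0.215 and 1.

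**Figure D4:**
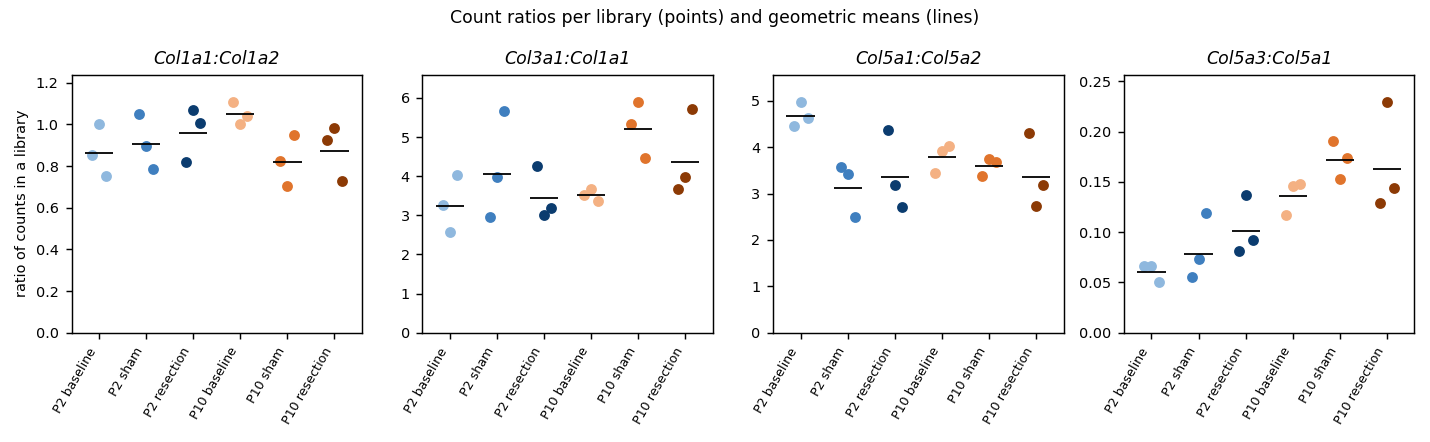
Count ratios of member pairs in each library (points), with the geometric mean of each group (lines), on linear axes that start at 0. The Col5a3 to Col5a1 ratio is 0.117 or more in every P10 library, and the Col1a1 to Col1a2 ratio stays between 0.705 and 1.11 in all 18.

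Resection was compared with sham surgery at each age and over both ages. All 10 members had a higher fitted level after resection at P2 and over both ages, and every member but Col11a2 at P10, where 49.9%, 52.9% and 52% of all genes tested did, yet none was called by edgeR. Over both ages, the log2 fold changes of the 8 well-measured members were between 0.46 (Col3a1) and 0.74 (Col5a3), with a median of 0.60, where the median over all 16170 genes tested was 0.03. Members called by edgeR numbered 0 of 10 in all 3 comparisons, as did genes called overall (0% of those tested). At an unadjusted p under 0.05, 7 members were higher at P2, 1 at P10 and 7 over both ages, against 3.38%, 3.43% and 4.55% of all genes tested in that direction. These counts include Col11a2 at P2 and Col2a1 over both ages, and the 1 member at P10 was Col2a1, all with a sham group at 0 counts at 1 age. DESeq2 called 0 members in each of the 3 comparisons, where it called 0.144%, 0.216% and 0.397% of all genes. Limma's voom fit with sample quality weights called 0 members at P2, 0 at P10 and 3 over both ages, against 0%, 0% and 0.315% of all genes. The comparisons at the single ages and the one over both ages use the same libraries, so their values are not independent. The members were also measured in the same libraries, and several had similar profiles over them. Counts of members are therefore not counts of independent results.

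At P2, Col5a3 had resection values of 300.5 to 574 CPM above all sham values (171 to 219 CPM), with a log2 fold change of 1.14 ± 0.29 (edgeR adjusted p = 1). Col1a1 was at 6451, 14119 and 15422 CPM after resection and at 10274, 5757 and 4339.6 CPM after sham surgery. These ranges overlapped through P2 resection replicate 1 and P2 sham replicate 1, and the log2 fold change was 0.82 ± 0.35 (edgeR adjusted p = 1). Col1a2 was at 7880, 13197 and 15326 CPM against 9772, 6437 and 5509.7 CPM (log2 fold change 0.75 ± 0.25, edgeR adjusted p = 1), with the same libraries in the overlap. Col5a1 did not overlap, with 3695, 4183 and 4637 CPM after resection and 3632, 2328 and 1832 CPM after sham surgery, and its log2 fold change was 0.68 ± 0.24 (edgeR adjusted p = 1). Col3a1, Col5a2, Col11a1 and Col27a1 differed by 0.61 ± 0.23, 0.67 ± 0.28, 0.88 ± 0.50 and 0.61 ± 0.44 in log2, and all 4 overlapped between the groups. Without P2 sham replicate 1 the difference was 1.47 for Col11a1 and 1.49 for Col27a1, and those of the other 6 members were 1.25 for Col1a1, 1.03 for Col1a2, 0.74 for Col3a1, 1.01 for Col5a1, 0.87 for Col5a2 and 1.16 for Col5a3, none of them called by edgeR (adjusted p 0.332 to 0.353). Col11a2 was at least 20.3-fold higher, at 61 counts over 3 resection libraries against 0 in sham (edgeR adjusted p = 1). The values of 3 members did not overlap, with resection higher, against 5.62% of all genes. One of the 3 was Col11a2, whose lowest resection library had 1 count, within the 3 counts that a 0 allows, and without it there were 2.

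At P10 the fitted differences of these 8 members were between 0.32 and 0.59 in log2. Col1a1 was at 10916, 14682 and 9385 CPM after resection and at 8812, 5856 and 9089 CPM after sham surgery, which did not overlap, with a log2 fold change of 0.56 ± 0.35 (edgeR adjusted p = 1). Col1a2 was at 11774, 14963 and 12870.1 CPM against 10683, 8301 and 9575 CPM (log2 fold change 0.47 ± 0.25, edgeR adjusted p = 1), and Col5a1 at 4586, 4391 and 4768 CPM against 4281, 2828 and 3281 CPM (0.40 ± 0.24, edgeR adjusted p = 1). Neither overlapped. Col3a1 and Col5a3 differed by 0.32 ± 0.23 and 0.33 ± 0.29 in log2 and overlapped between the groups. Col5a2, Col11a1 and Col27a1 differed by 0.51 ± 0.28, 0.32 ± 0.50 and 0.59 ± 0.45 and also overlapped, and without P10 sham replicate 1 the differences of the 8 were between 0.43 (Col3a1) and 1.06 (Col11a1), none of them called by edgeR (adjusted p = 0.877 each). Col2a1, with 30 counts against 0, was at least 11.6-fold higher (edgeR adjusted p = 1), of which 29 counts came from replicates 1 and 2. The values of 4 members did not overlap, with resection higher, against 5.63% of all genes. They include Col2a1, whose replicate 3 after resection had 1 count, within the 3 counts that a 0 allows, and without it there were 3.

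**Figure D5:**
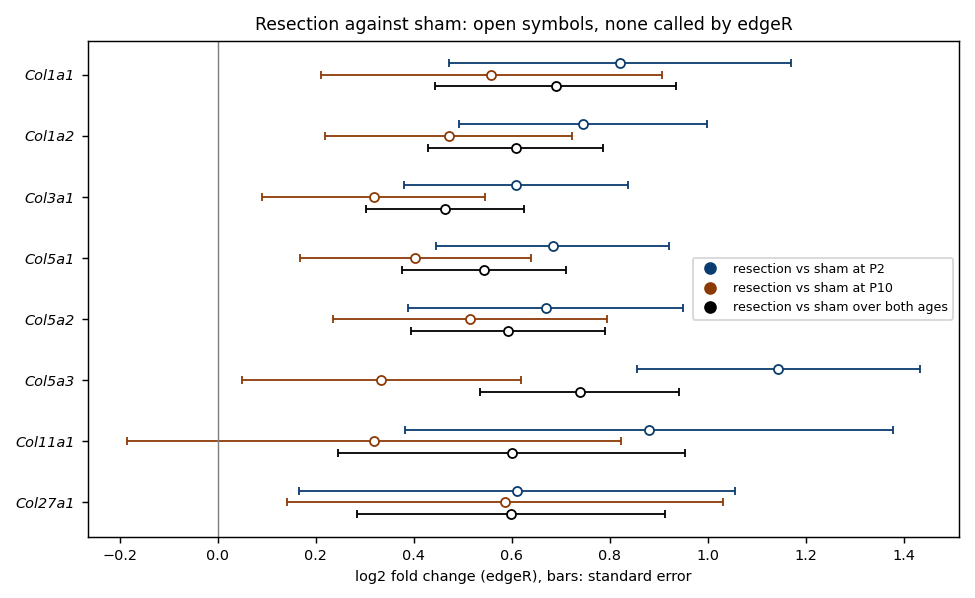
Log2 fold change of resection against sham at P2, at P10 and over both ages for 8 members, with bars for the standard error of the edgeR fit. All 24 points lie above 0, from 0.32 to 1.14, and none was called by edgeR.

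Over both ages, the smallest unadjusted p-values by edgeR were 0.00196 for Col5a3, 0.00328 for Col1a2 and 0.00467 for Col5a1, with edgeR adjusted p-values of 0.527, 0.551 and 0.574. The log2 fold changes of the 8 members were between 0.53 (Col3a1) and 1.04 (Col27a1) without P2 sham replicate 1 and between 0.52 (Col3a1) and 0.97 (Col11a1) without P10 sham replicate 1, and edgeR called 0 members in both fits. In limma's voom fit the called members were Col1a2 (log2 fold change 0.77, adjusted p = 0.0465), Col5a1 (0.77, adjusted p = 0.0304) and Col27a1 (1.17, adjusted p = 0.0465). The resection effect at P10 minus that at P2 was between -0.81 ± 0.40 (Col5a3) and -0.02 ± 0.63 (Col27a1) in log2 for the 8 well-measured members, and edgeR called 0 of 10 (adjusted p = 1 each after rounding, 0% of all genes called). At an unadjusted p under 0.05 there was 1 member, against 2.88% of all genes. It was Col11a2, which had 0 counts in the P2 sham group, and none of the 8 well-measured members passed. DESeq2 and limma's voom fit called 0 members as well, with 0.0643% and 0% of all genes called.

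Other measures were set beside the resection comparison. Libraries after resection held more genes with a count, 19707 to 20163 against 16384 to 17213 after sham surgery at P2 and 17080 to 19847 against 16256 to 16458 at P10. The summed level of 12 cardiomyocyte markers was lower after resection at P2, at 337 to 976 CPM against 1003 to 1403 CPM after sham surgery, and the groups overlapped at P10, at 261 to 788 CPM against 175 to 919.9 CPM. The summed level of 12 macrophage markers was 72.9 to 1103 CPM in the 6 resection libraries and 7.76 to 369 CPM in the 6 sham libraries. The summed level of 12 markers of activated fibroblasts was 7782 to 24673 and 4976 to 22176 CPM. Both of these ranges pool the ages and overlapped. The largest parts of the activated fibroblast sum were Postn (2945 to 17359 CPM over the 18 libraries) and Fn1 (786 to 4074 CPM). Runx1, Tagln and Cnn1 had at most 21.7 CPM. By edgeR no marker of these 3 lists was called over both ages, and 0 of the cardiomyocyte, 3 of the macrophage and 6 of the activated fibroblast markers had an unadjusted p under 0.05, against 5.78% of all genes. The part of these measures in the collagen differences was not tested.

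Sham surgery was compared with baseline, a comparison that also holds 3 days of growth. A fitted level above baseline was seen for 1 member at P2 and 2 at P10, against 51.9% and 47.6% of all genes, and no member was called by edgeR at either age, where 0% and 0.00618% of all genes were called. At an unadjusted p under 0.05 there were 3 members at P2 and 1 at P10, against 7.6% and 7.4% of all genes. DESeq2 called 1 member at P2 (Col11a2) and 0 at P10, against 1.09% and 0.963% of all genes, and limma's voom fit 0 at each age, against 0% and 0.00618%. The ranges did not overlap for 2 members at P2 (Col11a1 and Col11a2) and 1 at P10 (Col1a1), all lower after sham surgery, against 9.96% and 10% of all genes in either direction. Col11a1 was at 85.4, 32.0 and 36.1 CPM at P2 sham, below all 3 P2 baseline libraries (119.5 to 137 CPM), and its log2 difference was -1.34 ± 0.50 (edgeR adjusted p = 0.585), or -1.93 without P2 sham replicate 1. At P10 the log2 difference of Col11a1 was -1.36 ± 0.51 (edgeR adjusted p = 0.637), or -2.10 without P10 sham replicate 1 and -0.87 without P10 baseline replicate 1, and the groups overlapped. Col1a1 at P10 was at 8812, 5856 and 9089 CPM after sham surgery, below the 15578, 12370 and 10216 CPM at baseline, with a log2 difference of -0.68 ± 0.35 (edgeR adjusted p = 0.696), or -0.77 without P10 sham replicate 1 and -0.51 without P10 baseline replicate 1. The mean of Col1a1 at P10 was 7919 CPM after sham surgery, 11661 CPM after resection and 12721 CPM at baseline. Col5a1 differed by -0.65 ± 0.24 at P2 and by -0.30 ± 0.24 at P10 (edgeR adjusted p 0.567 and 0.891). Its difference was -0.97 at P2 without P2 sham replicate 1, and at P10 -0.48 without P10 sham replicate 1 and -0.17 without P10 baseline replicate 1.

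The genes that act on fibrillar collagens were read from 6 lists of 78 genes, 71 of them tested. The lists were chosen with earlier results of these data known, and the share over all genes is not matched to them in level. The shares below are therefore descriptions and not a test of the lists. In the comparison of the windows 21 of the 71 rose and 6 fell in the P10 window by edgeR (adjusted p under 0.05), 38.0% against 13.5% of all genes. At baseline it was 12 and 1 (18.3% against 4.38% of all genes), after sham surgery 9 and 0 (12.7% against 3.18%) and after resection 3 and 0 (4.23% against 0.86%). For resection against sham, edgeR called 0 of the 71 at P2, at P10 and over both ages, and 6, 4 and 12 had an unadjusted p under 0.05, which is 8.45%, 5.63% and 16.9% against 4.51%, 4.09% and 5.78% of all genes. Dcn, Lum and Ddr2 of these lists are also fibroblast markers, Fap, Fn1 and Lox are markers of activated fibroblasts, and Col9a1, Col9a2 and Col9a3 are cartilage markers.

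Of 23 genes for folding and export of procollagen, 3 rose and 3 fell in the P10 window. Those that rose were Colgalt2, which adds galactose to hydroxylysine (log2 fold change 1.25 ± 0.30), P4ha2, a catalytic subunit of prolyl 4-hydroxylase (1.05 ± 0.18), and the lysyl hydroxylase gene Plod1 (0.91 ± 0.14). Those that fell were the prolyl 3-hydroxylase gene P3h2 (-1.07 ± 0.26), P4ha3, another subunit of prolyl 4-hydroxylase (-0.95 ± 0.16), and the lysyl hydroxylase gene Plod2 (-0.56 ± 0.18). Members of the same enzyme family thus moved in opposite directions, and the median over the list was 0.10.

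Of the 7 genes tested for procollagen cleavage, 4 rose and 1 fell. Pcolce2 and Bmp1, an enhancer of C-propeptide removal and the proteinase that does it, rose by 3.44 ± 0.17 and 0.68 ± 0.16 in log2. Adamts2, which removes N-propeptides, rose by 0.97 ± 0.12, while Adamts14, which does the same, fell by 0.60 (SE 0.19) in log2. Among 5 crosslinking enzymes of the lysyl oxidase family, Loxl1 was called (0.82 ± 0.10). Of 16 fibril assembly partners 5 rose and 2 fell, with the small leucine-rich proteoglycans Dcn (0.95 ± 0.15), Prelp (0.74 ± 0.12) and Lum (0.72 ± 0.16) higher and the fibril-associated collagens Col12a1 (-1.71 ± 0.35) and Col9a2 (-1.11 ± 0.25) lower. Of 12 genes for degradation and uptake 7 rose and none fell, among them the proteinase inhibitor gene Timp2 (1.19 ± 0.09), cathepsin K, Ctsk (1.01 ± 0.13), and gelatinase A, Mmp2 (0.87 ± 0.10). Of 8 receptor genes Itga11, an integrin subunit that binds fibrillar collagen, was called, with a P10 mean of 32.0 CPM ± 11.5 (SD over 9 libraries) and a P2 mean of 5.25 CPM ± 5.26 (2.78 ± 0.58 in log2).

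Markers of other cells were compared between the windows in the same fit, in which 7.11% of all genes were called higher and 6.39% lower. The summed level of 12 cardiomyocyte markers was 337 to 1557 CPM at P2 and 175 to 919.9 CPM at P10, and 6 of them fell by edgeR. The 9 mural cell markers summed to 512 to 1388 CPM at P2 and 977 to 2069 CPM at P10, with 4 called higher and 1 lower. The 5 fibroblast markers summed to 7067 to 13756 CPM at P2 and 12398 to 24302 CPM at P10, with 2 called higher. Of the 12 markers of activated fibroblasts 1 rose and 2 fell, of 9 endothelial markers 1 rose, of 12 macrophage markers 2 rose, of the 7 cartilage and valve markers tested 2 fell, and no epicardial marker was called. Their part in the collagen differences with age was not tested.

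The genes outside the family whose profile was nearest to each member were found by the root mean square difference of centred log2 CPM over the 18 libraries. Nearest to Col3a1 were Mrc2, a receptor for collagen uptake (0.17), Pbxip1 (0.19) and Ssc5d (0.21), and nearest to Col5a3 were Ltbp3 (0.33), Ccdc97 (0.34) and Lamb2, a laminin chain (0.35). Col1a1 was nearest to Aebp1, a collagen-binding protein gene (0.26), Ski (0.26) and Irf2bpl (0.26), and Col1a2 to Aebp1 (0.19), Col6a2 (0.20) and Ski (0.22). Col5a1 was nearest to App (0.17), Wasf2 (0.20) and Aplp2 (0.21), Col5a2 to Tle3 (0.21), Wasf2 (0.23) and Mcl1 (0.23), and Col27a1 to Adgrl1 (0.25), Crebbp (0.26) and Setd7 (0.27). Col11a1 had no gene as near in these units, with Diaph3 at 0.51, Ncam1 at 0.58 and Nrk at 0.61. Such distances grow with a gene's own spread, and the standard deviation of Col11a1 over the libraries was 1.51 in log2. Those of the other well-measured members were between 0.37 (Col5a1) and 0.76 (Col5a3). The distances therefore do not rank the members by how close their nearest genes are relative to this spread. For the sparse Col2a1 the nearest were Rab27a (0.75), Atp6v0d2 (0.90) and 1810059H22Rik (0.91), and for Col11a2 Cd72 (1.28), Pla2g5 (1.29) and Susd3 (1.29).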

How the data were processed

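Single-end reads were trimmed (FastP 0.20.0) and mapped to GRCm38.p6 (STAR 2.7.0f), and the authors counted reads on exons, unstranded, per GENCODE M22 gene symbol (featureCounts of Subread 1.6.4). The deposited table holds whole-number counts that were not normalized, and no per-sample column was left out. Without strand, reads of antisense genes cannot be told apart, and 2.50% of the exon bases of Col5a1 overlap genes on the other strand and 1.44% of those of Col3a1 a gene on the same strand. By default featureCounts drops reads that overlap several genes.

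Counts were tested with edgeR 4.0.16 (R 4.3.3) in 1 quasi-likelihood fit of all 18 libraries with a mean per group, TMM scaling and filterByExpr (minimum count 10, minimum total 15), which kept 16170 genes. Adjusted p-values under 0.05 were called. The fit was also run on simulated counts, and no result given here rests on that run. DESeq2 1.42.0, limma 3.58.1 and other scalings, filters and library subsets were alternatives. Levels are given as TMM-scaled CPM, and nearest profiles used log2 CPM with a prior count of 2. The labels' replicate numbers name the libraries. Floors (3 counts) cover only counting error, because amplified reads carry no molecular identifiers. Lengths came from GENCODE M21, and other sequence from RefSeq. The named genes are all members, the 3 largest called changes per direction and list in the comparison of the windows (none was called in resection against sham) and the 3 nearest genes of each member. The members and lists were chosen with earlier results of these data known.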

Additional observations from a re-analysis of the deposited data

How the results depend on the processing

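The calls of Col3a1, Col5a3 and Col11a1 over the windows held under all 6 other settings and without each library. Counts of called members changed as follows. In P10 against P2 after sham surgery, DESeq2 and the fit without a filter called 3 members, Col11a2 among them, where the filtered edgeR fit called 2. Over the windows limma's voom fit called 4, Col1a2 among them, where edgeR called 3. Without any filter beyond 1 count, 1 member was called in sham against baseline at P10 (Col11a1, adjusted p = 0.037), where the filtered edgeR fit called 0. DESeq2 called 1 in sham against baseline at P2 (Col11a2, adjusted p = 0.0429). Limma's voom fit called 3 in resection against sham over both ages, where edgeR called 0. The fit of only the groups compared called 0 in P10 against P2 after sham surgery, where the fit of all groups called 2. The cause of these changes was not tested. Leaving out 1 library gave 0 to 2 called members at baseline, 1 to 2 after sham surgery and 0 to 1 after resection in P10 against P2.

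The block on replicate number called the same number of members as the fit without it in all comparisons (3 over the windows, 3 at baseline, 2 after sham surgery, 1 after resection and 0 elsewhere). The labels do not say what a number stands for, and not every same-numbered pair correlated over 0.1, so the libraries were not treated as paired. Deviations from the group means had a median correlation of 0.047 over 45 same-numbered pairs (15 over 0.1) and of -0.025 over 90 pairs with different numbers (12 over 0.1), and 10 of 18 libraries were nearest to their own number, a hint of shared variation from the data, not the design.

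Some uncalled differences changed sign. Not all were near 0: the resection effect of Col11a1 at P10 minus that at P2 was -0.56 ± 0.71 in the main fit. In limma's voom fit the differences that changed sign were Col5a3 in sham against baseline at P10 (-0.17) and Col27a1 in P10 against P2 after sham surgery (0.34). For the resection effect of Col27a1 at P10 minus that at P2, it was 0.0096 with DESeq2's size factors in edgeR and 0.0093 in DESeq2's own test. For the Col5a1 to Col5a2 ratio, the difference of medians for resection against sham was -0.15. With 1 library left out, log2 differences for P10 against P2 after resection were -0.34 to 0.18 for Col1a1, -0.12 to 0.32 for Col1a2 and -0.13 to 0.36 for Col5a2. After sham surgery they were -0.016 to 0.65 for Col1a1 and -0.64 to 0.69 for Col27a1. They were -0.068 to 0.21 for Col5a1 at baseline and -0.35 to 0.095 for Col27a1 over the windows. In sham against baseline they were -0.55 to 0.13 for Col1a1 and -0.29 to 0.020 for Col5a2 at P2, and -0.30 to 0.027 for Col3a1 and -0.20 to 0.27 for Col5a3 at P10. The resection effect at P10 minus that at P2 was -0.39 to 0.10 for Col5a2, -1.15 (without P2 sham replicate 1) to 0.17 (without P10 sham replicate 1) for Col11a1 and -0.91 (without P2 sham replicate 1) to 0.42 for Col27a1. For the ratios, P10 against P2 was -0.037 to 0.044 for Col1a1 to Col1a2 and -0.094 to 0.030 for Col5a1 to Col5a2, and resection against sham was -0.095 to 0.077 for Col5a1 to Col5a2. The share of counts on the members moved by less than 1 SD in each group with counts on tested genes as the denominator.

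A value of 0 allows up to 3 counts (0.128 to 0.296 CPM by library), which limits what can be said of Col2a1 and Col11a2. Fitted changes of Col2a1 and Col11a2 depend on the prior count where a group is at 0, so of these 2 genes only the calls were followed through the settings, not the size of the change.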

Other observations

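Among the 8 well-measured members, Col1a2 and Col5a2 had the most similar profiles, with a root mean square difference of 0.16 in centred log2 CPM over the 18 libraries. Col1a1 and Col1a2 followed at 0.20, Col1a2 and Col3a1 at 0.22, Col1a2 and Col5a1 at 0.23, Col3a1 and Col5a2 at 0.24 and Col5a1 and Col5a2 at 0.27. Col27a1 lay nearest to Col5a1 (0.36) and Col5a3 nearest to Col3a1 (0.39). Col11a1 differed from every other member by 1.32 (Col27a1) to 2.02 (Col5a3). These are descriptions of the same libraries, in which the members share depth and scaling.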
